A study of Homo sapiens with 20 samples.

Results

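The Fanconi anemia and homologous recombination genes described here are a list of 33 genes that repair DNA interstrand crosslinks and double-strand breaks. They were found by symbol in the platform annotation, and 28 of the 33 are measured here, out of 18417 named genes. The other 5, FANCA, FANCD2, BRCA2, RAD51D and RBBP8, are not analysed here. The list was drawn up by gene name and not by a threshold on measured values.

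The cells were B5/589, an immortalized human mammary epithelial line, and every sample carried a p53 transgene that doxycycline switches on. Total RNA of 20 samples was hybridised to 1 Affymetrix array each, in 5 groups of 4. The cells had been given 3 ng of doxycycline and collected at 12 h or at 24 h, given 5 ng and collected at 12 h or at 24 h, or kept at 0 ng and collected at 24 h. The study compared lower with higher p53 levels, which were set by the doxycycline dose. The labels give the doses with no volume and give 0 ng at 24 h only, so a comparison of a 12 h group with 0 ng changes dose and time together. The promoter that drives the transgene and whether the line is 1 clone are not given in the sources used here, and no sample without the transgene is analysed here. Whether the 4 samples of a group were separate cultures is not stated, so p-values refer to the spread among these samples only, and that spread may be technical.

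The p53 target CDKN1A, which encodes the cell cycle inhibitor p21, had log2 signals of 9.96, 10.10, 10.11 and 10.04 at 5 ng for 24 h, against 8.58, 8.47, 8.43 and 8.99 at 0 ng. Its 3 ng arrays at 24 h, between 9.10 and 9.43, lay between those groups without overlap. The rise at 5 ng was 2.70-fold (limma, Benjamini-Hochberg adjusted p = 1.0e-07), and MDM2, the p53 ubiquitin ligase and p53 target, rose by 0.47 on the log2 scale (adjusted p = 0.017). The keratins KRT5, KRT14, KRT8 and KRT18 lay at the 98.7th to 99.9th percentile of all genes in 0 ng cells, and KRT19 lay at the 43.5th. The 13 immune, endothelial and stromal markers ranged from the 1.49th percentile for the stromal gene LUM to the 86.1th for the myeloid gene CD68, with the leukocyte gene PTPRC at the 2.19th, the stromal genes DCN and COL1A2 at the 3.04th and the 40.7th and the myeloid gene CD14 at the 57.4th. CD14 was 2.69-fold lower at 5 ng than at 0 ng at 24 h. Over these 13 markers the mean log2 signal of an array was 2.46 to 3.10 at 5 ng for 24 h, against 2.96 to 3.47 at 0 ng. The arrays differed in brightness as deposited: the array median was 4.54 to 4.99 at 5 ng for 24 h and 4.74 to 5.01 at 3 ng for 24 h, against 4.94 to 5.28 at 0 ng, and 4.77 to 5.54 at 3 ng for 12 h. For that reason the counts of called genes of the list are also given after quantile normalization, which gives every array the same distribution.

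When a replication fork meets a DNA interstrand crosslink, the Fanconi anemia core complex, a multi-subunit ubiquitin ligase anchored to DNA by FANCM, attaches ubiquitin to the FANCD2 and FANCI pair with the help of the conjugating enzyme UBE2T. Nucleases that the scaffold SLX4 organises then unhook the crosslink. The break that remains is resected by the MRE11, RAD50 and NBN complex with EXO1 and BLM, and BRCA1 with its partners then promotes strand exchange with the intact copy, helped by XRCC2, XRCC3 and RAD51C and by RAD51AP1, RAD54L and RAD54B. Many of these genes are transcribed mainly in S and G2 phase in dividing cells, and p53 is known to lower many cell cycle genes through p21 and the DREAM complex, which binds E2F-type and CHR promoter motifs.

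The promoters of the genes at both ends of the response are printed to show which such motifs they hold. XRCC2 and RAD51AP1 had the largest falls between 5 ng and 0 ng at 24 h, and RAD51C and SLX4 the smallest differences. The windows run from 250 bases before to 50 bases after the RefSeq transcription start, 5′ to 3′ on the strand of the gene, in build GRCh38.p14, and capitals mark the motifs found. XRCC2 lies at chr7:152676092-152676391 on the minus strand, RAD51AP1 at chr12:4538640-4538939 on the plus strand, RAD51C at chr17:58692323-58692622 on the plus strand (the first of its 2 windows) and SLX4 at chr16:3611557-3611856 on the minus strand.
XRCC2: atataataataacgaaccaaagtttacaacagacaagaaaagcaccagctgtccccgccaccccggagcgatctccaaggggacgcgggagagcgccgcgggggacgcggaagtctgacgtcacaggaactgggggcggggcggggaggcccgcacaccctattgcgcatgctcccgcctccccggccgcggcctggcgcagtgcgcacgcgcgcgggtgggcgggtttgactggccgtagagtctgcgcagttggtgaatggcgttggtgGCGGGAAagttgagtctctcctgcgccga
RAD51AP1: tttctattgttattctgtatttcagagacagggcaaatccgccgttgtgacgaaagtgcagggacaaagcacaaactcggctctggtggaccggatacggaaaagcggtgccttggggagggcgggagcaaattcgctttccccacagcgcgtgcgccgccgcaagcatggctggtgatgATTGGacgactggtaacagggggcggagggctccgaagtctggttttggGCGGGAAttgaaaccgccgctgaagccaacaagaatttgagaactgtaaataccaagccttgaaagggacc
RAD51C: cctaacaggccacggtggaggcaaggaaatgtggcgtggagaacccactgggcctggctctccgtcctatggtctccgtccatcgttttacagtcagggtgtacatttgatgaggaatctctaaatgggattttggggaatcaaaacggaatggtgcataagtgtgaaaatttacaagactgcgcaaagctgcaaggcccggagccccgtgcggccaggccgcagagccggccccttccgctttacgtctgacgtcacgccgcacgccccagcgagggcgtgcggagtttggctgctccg
SLX4: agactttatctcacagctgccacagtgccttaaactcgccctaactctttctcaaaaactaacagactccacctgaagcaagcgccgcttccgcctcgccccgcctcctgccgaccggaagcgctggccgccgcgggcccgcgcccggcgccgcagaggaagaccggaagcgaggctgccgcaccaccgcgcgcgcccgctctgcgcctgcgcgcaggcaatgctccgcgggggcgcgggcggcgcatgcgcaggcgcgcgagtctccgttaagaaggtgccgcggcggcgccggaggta
The letters searched, on both strands, were the E2F-type motifs TTGGCGC and also TTCCCGC, as well as TTGCCGC and likewise TTCGCGC. The CHR motifs were TTTGAA and also TTCGAA, and the last was the CCAAT box. The XRCC2 window held TTCCCGC on the opposite strand, 22 to 28 bases after the start. The RAD51AP1 window held the same letters on the opposite strand, with positions -21 to -15 relative to the start, and a CCAAT box on the opposite strand at -70 to -66. No motif overlapped another in these windows, and none of the letters occurred in the printed RAD51C and SLX4 windows.

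RefSeq promoter windows were found for 25 of the 28 genes, 31 windows in all because 6 genes have 2. An E2F-type motif was present in 17 of the 31 windows (54.8%), against 4553 of all 35116 windows of the table (13.0%). The CCAAT box was in 41.9% of the windows of the list, against 34.6% of all windows, and a CHR motif in 9.68%, against 16.4%. The median GC content was 63.0% in the windows of the list, against 58.7% in all windows, and its part in the motif counts was not tested. Among genes of the list at least 4-fold lower at 5 ng than at 0 ng, 12 of 17 windows (70.6%) held an E2F-type motif. For the other genes of the list 5 of 14 windows (35.7%) did. Counted by gene, these were 11 of 14 genes, against 4 of 11. The median GC content was 61.3% in the first set of windows and 66.3% in the other. Of the genes at least 4-fold lower with a window, FANCB, UBE2T and FANCM had no E2F-type motif. UBE2T had a CHR motif and a CCAAT box, FANCM had a CCAAT box, and FANCB had none of the motifs searched. FANCF, which fell less than 2-fold, had an E2F-type motif. These matches describe letters and not bound sites.

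At 24 h, cells at 5 ng had lower signals than cells at 0 ng for 25 of the 28 genes and a higher signal for none (limma, adjusted p under 0.05), where 23.5% of all genes were called lower and 4.52% higher. The fall was 2-fold or more for 20 of the 28 genes, against 6.6% of all genes. The median log2 difference was -2.19 over the list and -0.24 over all genes. In RNA from whole cultures, fewer cells in a cell cycle phase and less RNA per cell cannot be told apart. After quantile normalization, 25 genes were lower and 1, RAD51C, was higher, with a median of -1.84 over the list and 0.07 over all genes, of which 17.2% were called lower and 20.6% higher. In this comparison 25 of the 28 genes, against 31.9% of all genes, had groups of 4 arrays that did not overlap.

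**Figure D1:**
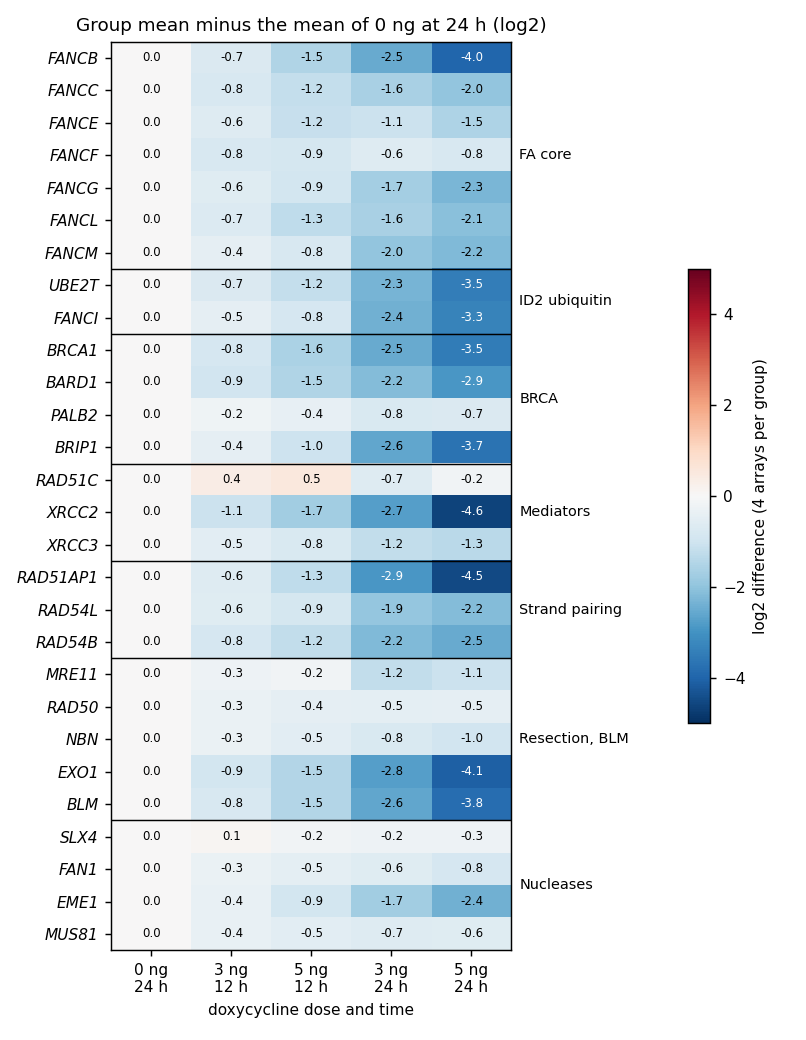
Mean log2 signal of each doxycycline group minus the mean of the 0 ng group, for all 28 measured genes in order of their role, with columns for 0 ng, 3 ng at 12 h, 5 ng at 12 h, 3 ng at 24 h and 5 ng at 24 h and blue for lower signals. XRCC2, RAD51AP1 and EXO1 reach -4.64, -4.50 and -4.07 at 5 ng for 24 h, while SLX4 and RAD50 lie between -0.25 and -0.49 at 24 h.

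All 7 measured genes of the core complex and its anchor were lower at 5 ng, with a median log2 difference of -2.10. FANCB, which pairs with FANCL in the catalytic part of the complex, had 3.14, 3.00, 2.10 and 3.24 at 5 ng, against 6.98, 6.85, 6.26 and 7.29 at 0 ng. Every 5 ng array lay far under every 0 ng array, and the mean difference was 15.7-fold (log2 difference -3.98 ± 0.31 SE, adjusted p = 2.4e-09). FANCG, an adaptor subunit, was lower by -2.28, and FANCL, the ubiquitin ligase subunit itself, by -2.10. FANCM, the DNA translocase that anchors the complex, differed by -2.20, FANCC by -1.97 and FANCE, the subunit that contacts FANCD2, by -1.53. FANCF, a scaffold subunit, had the smallest fall of the group at -0.82 (adjusted p = 0.0021).

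Both measured genes of the ubiquitination step itself fell by 10.2-fold or more. UBE2T, the conjugating enzyme, had 6.14, 6.64, 6.21 and 6.17 at 5 ng, against 9.77, 9.76, 9.48 and 10.03 at 0 ng. FANCI, the partner and co-substrate of FANCD2, had 5.91, 6.25, 5.85 and 6.0 at 5 ng, against 9.41, 9.36, 8.93 and 9.71 at 0 ng. Neither gene's groups overlapped, and the log2 differences were -3.47 ± 0.22 SE for UBE2T (11.1-fold, adjusted p = 1.2e-10) and -3.35 ± 0.21 SE for FANCI (10.2-fold, adjusted p = 1.1e-10).

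BRCA1 and its partners were lower for 4 of 4 genes, but PALB2 differed far less than the others. BRCA1, which promotes resection, had 4.32, 4.6, 4.33 and 4.64 at 5 ng, against 8.02, 7.84, 7.59 and 8.35 at 0 ng. BRIP1, the BRCA1-bound helicase also called FANCJ, had 4.44, 4.68, 4.45 and 4.02 at 5 ng, against 8.12, 8.05, 7.73 and 8.44 at 0 ng. BARD1, the obligate RING partner of BRCA1, had 3.91, 3.44, 4.20 and 4.51 at 5 ng, against 6.85, 6.86, 6.71 and 7.34 at 0 ng. In each of these 3 genes every 5 ng array lay under every 0 ng array. The falls were 11.1-fold for BRCA1, 12.9-fold for BRIP1 and 7.59-fold for BARD1, with adjusted p of 5.1e-09 or less in limma. PALB2, a scaffold that binds BRCA1, was 1.67-fold lower (-0.74 ± 0.17 SE, adjusted p = 0.0023).

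The group of XRCC2, XRCC3 and RAD51C held both the largest and the smallest difference of the list. XRCC2, a recombination mediator, had 3.73, 3.56, 3.5 and 4.0 at 5 ng, against 8.33, 8.33, 7.92 and 8.79 at 0 ng. The groups lay far apart, and the 25-fold fall (log2 difference -4.64 ± 0.24 SE, adjusted p = 1.2e-11) ranked 7th from the lowest of all 18417 genes. At 5 ng for 24 h the mean signal was 3.70 for XRCC2, 3.62 for BLM, 3.39 for RAD51AP1 and 2.87 for FANCB. It was 3.91 for EME1, 3.42 for RAD54B and 3.39 for FANCM. RAD54B and FANCM had means of 3.75 and 3.60 at 3 ng for 24 h. At 5 ng for 24 h the endothelial markers had means of 3.82 (CDH5), 3.75 (KDR), 3.69 (VWF) and 1.37 (PECAM1). The part of background signal in the folds and ranks of these repair genes, at either dose and between the doses, was not tested. XRCC3, which forms a complex with RAD51C, fell 2.52-fold. RAD51C, which is found in complexes with XRCC2 and with XRCC3, had 7.78, 7.96, 7.94 and 8.20 at 5 ng, against 8.17, 8.10, 7.89 and 8.43 at 0 ng. Its groups overlapped, and the log2 difference of -0.18 had a 95% interval from -0.58 to 0.22 (adjusted p = 0.56). After quantile normalization the difference was 0.21 with the opposite sign (adjusted p = 0.034), so its direction depends on the scaling.

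RAD51AP1, RAD54L and RAD54B were all lower. RAD51AP1, which stimulates strand pairing, had 3.07, 3.53, 3.20 and 3.75 at 5 ng, against 7.97, 7.84, 7.54 and 8.20 at 0 ng. Its groups did not overlap, and its 22.6-fold fall (-4.50 ± 0.24 SE, adjusted p = 1.7e-11) ranked 15th from the lowest of all genes. The related translocases RAD54L and RAD54B fell 4.56-fold and 5.77-fold.

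Among the resection genes and BLM, EXO1 and BLM had larger falls than the genes of the MRE11, RAD50 and NBN complex. EXO1, the long-range resection nuclease, had 5.20, 5.79, 5.39 and 5.22 at 5 ng, against 9.51, 9.44, 9.12 and 9.79 at 0 ng. BLM, the Bloom syndrome helicase, had 3.63, 3.48, 3.5 and 3.85 at 5 ng, against 7.42, 7.34, 7.19 and 7.67 at 0 ng. Both genes had separate groups, with falls of 16.7-fold for EXO1 and 13.8-fold for BLM (adjusted p = 2.0e-11 and 2.7e-11). MRE11, the nuclease of the complex, was 2.09-fold lower (adjusted p = 0.0017) and NBN, its regulatory subunit, 1.96-fold lower (adjusted p = 0.0011). RAD50, the ATPase of the complex, had 7.90, 7.86, 7.83 and 8.16 at 5 ng, against 8.60, 8.22, 8.05 and 8.72 at 0 ng, a difference of -0.46 that missed the threshold (adjusted p = 0.060).

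The nucleases and their scaffold had the smallest median of these groups, -0.72, with 3 of 4 genes called. EME1, the regulatory partner of MUS81, fell 5.35-fold, whereas MUS81, the catalytic subunit of the same enzyme, fell 1.52-fold (adjusted p = 0.0018), a call that median centring of the arrays ended (-0.33, adjusted p = 0.12). FAN1, a crosslink repair nuclease, fell 1.78-fold. SLX4 had 5.69, 5.44, 5.69 and 5.71 at 5 ng, against 5.81, 5.64, 5.87 and 6.27 at 0 ng. The groups overlapped, and the difference of -0.27 was not called (adjusted p = 0.32).

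**Figure D2:**
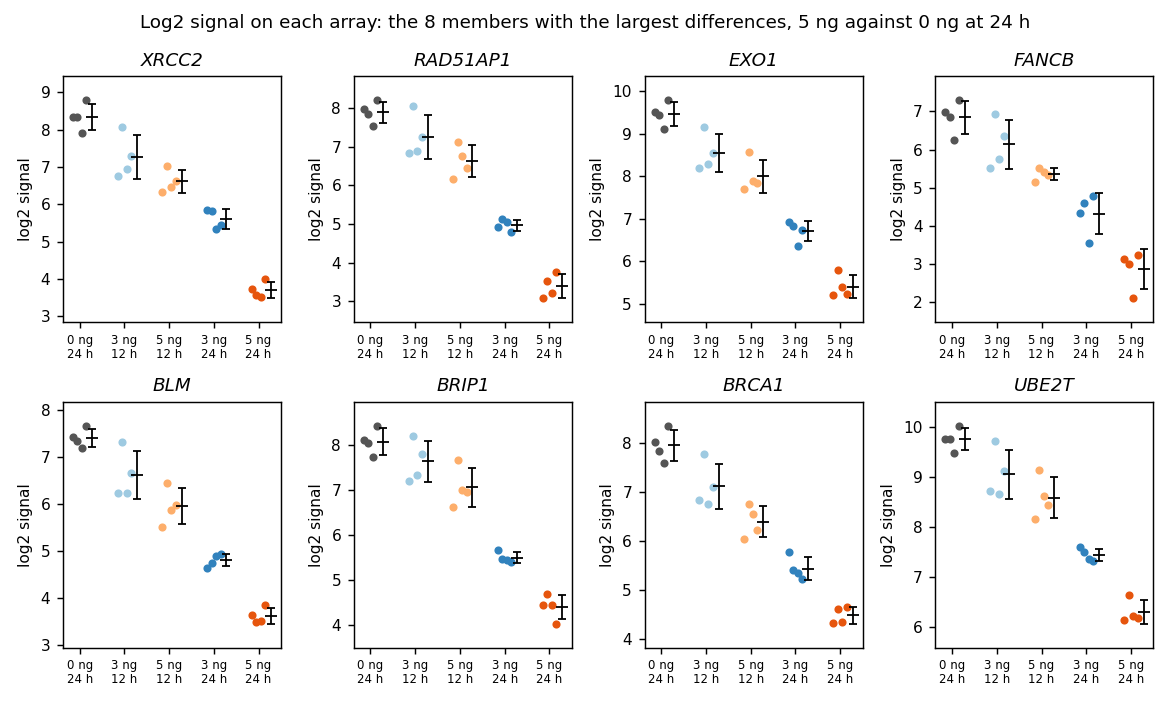
Log2 signal on every array of the 8 genes with the largest difference between 5 ng and 0 ng at 24 h, by group, with a bar for the mean and 1 SD of the 4 arrays. XRCC2 lies between 3.5 and 4.0 at 5 ng for 24 h, and every 0 ng array of it is at 7.92 or above.

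**Figure D3:**
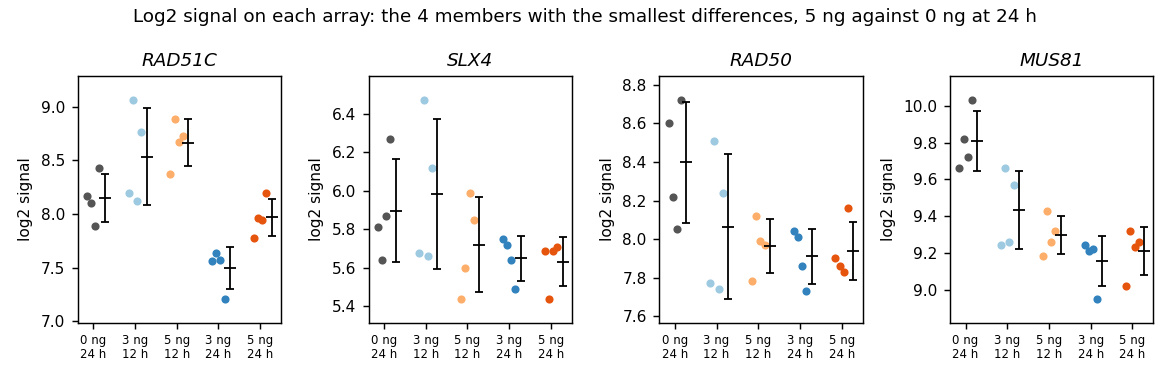
Log2 signal on every array of RAD51C, SLX4, RAD50 and MUS81, by group, on the same kind of axes. RAD51C lies between 7.78 and 8.20 at 5 ng for 24 h and between 7.89 and 8.43 at 0 ng, so the groups overlap.

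At 3 ng for 24 h, 26 of the 28 genes were lower than at 0 ng and none was higher, where 23% of all genes were called lower and 1.5% higher. The comparisons of both doses and of both 12 h groups with 0 ng share the same 0 ng arrays. The fall was 2-fold or more for 20 genes, against 4.6% of all genes, and the median log2 difference was -1.71 over the list and -0.23 over all genes. RAD51AP1 had 4.91, 5.12, 5.04 and 4.79 at 3 ng, a 7.58-fold fall against the 0 ng arrays listed above. EXO1 had 6.93, 6.83, 6.37 and 6.73 at 3 ng and was 6.73-fold lower than at 0 ng. XRCC2 had 5.84, 5.81, 5.33 and 5.44 at 3 ng and was 6.67-fold lower. In each of these 3 genes the 3 ng arrays lay under all 0 ng arrays (adjusted p of 6.1e-08 or less). RAD50 (-0.49, adjusted p = 0.051) and SLX4 (-0.25, adjusted p = 0.38) were not called, so 25 genes were lower at both doses and only RAD51C was called at 3 ng but not at 5 ng. Groups of 4 arrays did not overlap for 27 of the 28 genes, against 29.4% of all genes. RAD51C had 7.56, 7.64, 7.57 and 7.21 at 3 ng, all under the 0 ng arrays (-0.65 ± 0.19 SE, adjusted p = 0.016).

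The smallest calls at 3 ng were the least stable. RAD51C lost its call without 0 ng replicate 4 or without 3 ng replicate 4 (-0.56, adjusted p = 0.071 in both), FANCF without the same arrays (-0.51 and -0.60, adjusted p up to 0.080), and FAN1 without either of them or without 0 ng replicate 1 (adjusted p up to 0.082). After quantile normalization 23 genes were called lower, against 12.5% of all genes, with a median of -1.37 over the list, and FAN1, FANCF and RAD51C were the 3 no longer called. After median centring 23 were also called lower and none higher, against 2361 lower and 814 higher of all 18417 genes. FAN1, FANCF and MUS81 were the 3 lost.

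The direct comparison of the doses at 24 h called 9 genes of the list lower at 5 ng than at 3 ng and none higher, where 0.755% of all genes were called lower and 1.79% higher. The 9 were XRCC2, RAD51AP1, FANCB, EXO1, BLM, UBE2T, BRIP1, BRCA1 and FANCI, and 7 of them differed by 2-fold or more, against 0.532% of all genes. The groups did not overlap for 14 of the 28 genes, against 11.2% of all genes, and of these only RAD51C had higher values at 5 ng. XRCC2 had 3.73, 3.56, 3.5 and 4.0 at 5 ng, against 5.84, 5.81, 5.33 and 5.44 at 3 ng, which is 3.75-fold lower (-1.91 ± 0.24 SE, adjusted p = 0.00020) and the 2nd lowest log2 difference of all 18417 genes. RAD51AP1 was 2.98-fold lower (adjusted p = 0.00069), with 3.07 to 3.75 at 5 ng, against 4.79 to 5.12 at 3 ng. FANCB had 3.14, 3.00, 2.10 and 3.24 at 5 ng, against 4.35, 4.59, 3.56 and 4.77 at 3 ng, and was 2.73-fold lower (adjusted p = 0.0099). All 3 genes had separate groups.

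The other genes called between the doses were EXO1 (-1.31 on the log2 scale), BLM (-1.19), UBE2T (-1.15), BRIP1 (-1.09), BRCA1 and FANCI (-0.95 each). Leaving out 1 array at a time gave 6 to 9 called genes. BRCA1 lost its call without 5 ng replicate 1 (-0.90, adjusted p = 0.058), 5 ng replicate 3 (-0.91, adjusted p = 0.060) or 3 ng replicate 1 (-0.84, adjusted p = 0.070), FANCI without 5 ng replicate 3 (-0.90, adjusted p = 0.056) or 3 ng replicate 1 (-0.85, adjusted p = 0.062), and FANCB without 5 ng replicate 3 (-1.19, adjusted p = 0.054) or 3 ng replicate 4 (-1.30, adjusted p = 0.060). Of the core complex, FANCB was the only gene called, and none of the 4 nuclease genes was called. BARD1 (-0.78, adjusted p = 0.11), EME1 (-0.69, adjusted p = 0.23), FANCG (-0.60, adjusted p = 0.087) and FANCE (-0.435, adjusted p = 0.41) had separate groups but missed the threshold. RAD51C went the other way, with 7.78 to 8.20 at 5 ng, against 7.21 to 7.64 at 3 ng. That difference of 0.47 ± 0.19 SE was not called as deposited (adjusted p = 0.35) and was called after quantile normalization (0.41, adjusted p = 0.0015), which called 14 genes lower and 1 higher, against 4.42% lower and 5.96% higher of all genes.

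At 12 h none of the 28 genes passed the threshold between 5 ng and 3 ng in limma, where 0% of all genes were called lower and 0.0217% higher. At an unadjusted p under 0.05, 12 of the 28 were lower and none higher, against 813 lower and 269 higher of all 18417 genes. Of the 28 differences 26 were negative, against 13841 of all 18417 genes. The median was -0.37 over the list and -0.12 over all genes. BRCA1 was the only gene of the list whose groups did not overlap, against 1.19% of all genes, with 6.04, 6.74, 6.55 and 6.21 at 5 ng, against 6.82, 7.76, 6.75 and 7.10 at 3 ng (-0.72 ± 0.21 SE, adjusted p = 0.54). It was also the only gene called after quantile normalization (-0.66, adjusted p = 0.040), where 0.424% of all genes were lower and 2.32% higher. The change of the dose difference between 12 h and 24 h was tested as an interaction. It called 0% of all genes and none of the 28. At an unadjusted p under 0.05 the interaction was negative for 4 of the 28 and positive for none, against 92 and 299 of all 18417 genes. After quantile normalization it again called none of the 28, against 0.0652% of all genes lower and 0.00543% higher. The largest was XRCC2, for which the dose difference was lower at 24 h than at 12 h by -1.25 ± 0.34 SE (adjusted p = 0.99). The genes called at 24 h are therefore not shown to differ between times in their response to dose.

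**Figure D4:**
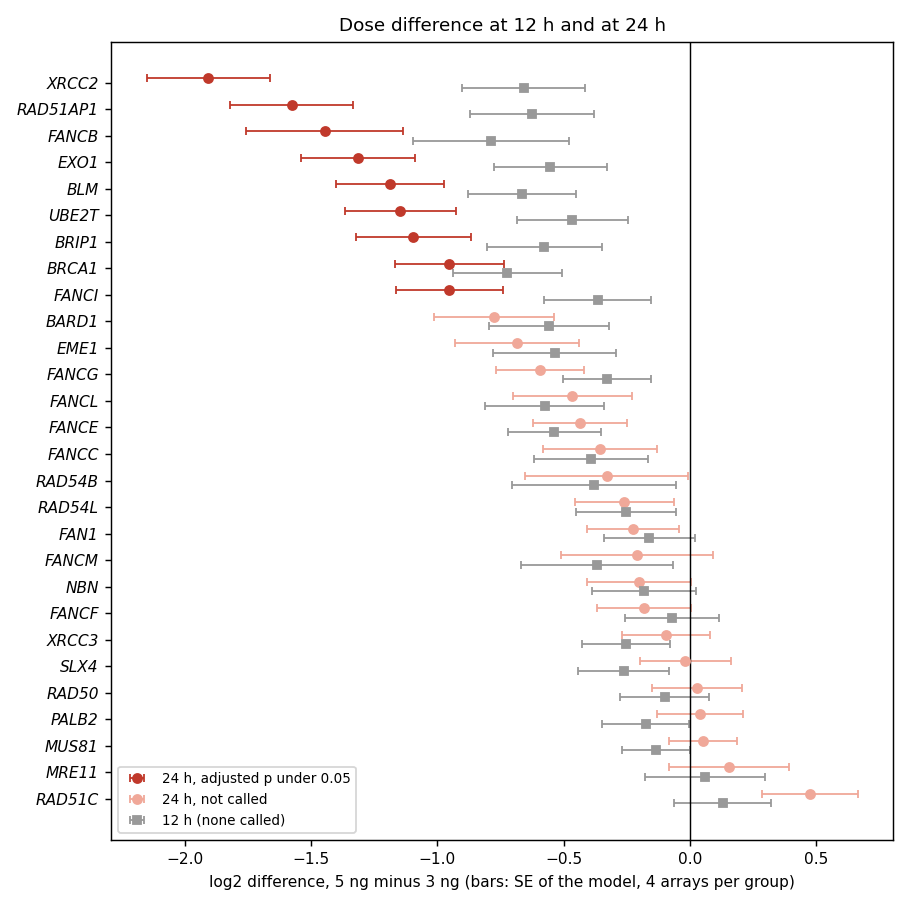
Log2 difference of 5 ng minus 3 ng for each of the 28 genes at 24 h and at 12 h, with bars of 1 SE from the model. XRCC2 is at -1.91 at 24 h and at -0.66 at 12 h, and RAD51C lies above 0 at both times, at 0.47 and 0.13.

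Between 24 h and 12 h, 20 of the 28 genes were lower at 24 h at 3 ng, where 4.36% of all genes were called lower, and 17 were lower at 5 ng, where 3.55% were. No gene of the list was higher at 24 h at either dose as deposited, where 0.0706% of all genes were higher at 3 ng and 0.424% at 5 ng. At each dose 20 genes had groups that did not overlap, against 8.52% of all genes at 3 ng and 11.4% at 5 ng. After quantile normalization 21 genes were lower and 1 higher at 3 ng (6.06% and 9.92% of all genes), and 20 were lower and none higher at 5 ng (7.6% and 10.8%). The median log2 difference over the list was -1.15 at 3 ng and -1.31 at 5 ng, while over all genes it was -0.23 and -0.08. RAD51AP1 had 3.07, 3.53, 3.20 and 3.75 at 24 h, against 6.16, 7.13, 6.76 and 6.45 at 12 h with 5 ng, a 9.43-fold fall with no overlap (adjusted p = 1.1e-08). With 3 ng it had 4.91, 5.12, 5.04 and 4.79 at 24 h, against 6.83, 8.05, 6.88 and 7.24 at 12 h, 4.87-fold lower and again without overlap. The 12 h arrays of both doses thus stood apart from the 24 h arrays.

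BRIP1 had 4.44, 4.68, 4.45 and 4.02 at 24 h, against 6.63, 7.67, 7.0 and 6.95 at 12 h with 5 ng, a 6.34-fold fall. With 3 ng it had 5.67, 5.46, 5.44 and 5.40 at 24 h, against 7.20, 8.21, 7.34 and 7.81 at 12 h, a 4.43-fold fall. XRCC2 had 3.73, 3.56, 3.5 and 4.0 at 24 h, against 6.32, 7.04, 6.47 and 6.63 at 12 h with 5 ng, a 7.56-fold fall, and was 3.18-fold lower with 3 ng. None of these groups overlapped. FANCI had 7.26, 7.05, 6.72 and 6.79 at 24 h, against 8.64, 9.48, 8.51 and 8.91 at 12 h with 3 ng, which is 3.81-fold lower, and was 5.73-fold lower with 5 ng. The falls with time of UBE2T were 4.91-fold with 5 ng and 3.06-fold with 3 ng.

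RAD51C was lower at 24 h than at 12 h at both doses. It had 7.56, 7.64, 7.57 and 7.21 at 24 h, against 8.20, 9.06, 8.12 and 8.76 at 12 h with 3 ng (-1.04 ± 0.19 SE, adjusted p = 0.0014). With 5 ng it had 7.78, 7.96, 7.94 and 8.20 at 24 h, against 8.37, 8.89, 8.67 and 8.73 at 12 h (-0.69 ± 0.19 SE, adjusted p = 0.042), a call that 6 of the 8 left-out arrays ended (adjusted p up to 0.16). FANCF had the highest value of the list, 0.18 at 3 ng and 0.07 at 5 ng, neither called. After quantile normalization FANCF was higher at 24 h with 3 ng (0.50, adjusted p = 0.0051), with 5.92 to 6.18 at 24 h, against 5.37 to 5.66 at 12 h. Its deposited values overlapped, with 6.0, 5.92, 5.93 and 5.78 at 24 h, against 5.30, 6.11, 5.48 and 6.01 at 12 h. The count at 3 ng fell to 15 without 3 ng 12 h replicate 2, the brightest array, and the count at 5 ng lay between 14 and 20 when 1 array was left out.

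With 5 ng for 12 h, 20 of the 28 genes were lower than at 0 ng for 24 h, where 11.5% of all genes were called lower and 3.44% higher. For 20 genes the groups did not overlap, against 20.2% of all genes, and the median was -0.92 over the list and -0.18 over all genes. XRCC2 had 6.32, 7.04, 6.47 and 6.63 at 5 ng for 12 h, against 8.33, 8.33, 7.92 and 8.79 at 0 ng, a 3.31-fold difference with no overlap (adjusted p = 6.1e-05). BRCA1 was 2.96-fold lower, with 6.04 to 6.74 at 5 ng for 12 h, against 7.59 to 8.35 at 0 ng. BARD1 was 2.82-fold lower, with 5.13, 5.88, 5.35 and 5.41 at 5 ng for 12 h, against 6.71 to 7.34 at 0 ng. RAD51C was above 0 ng by 0.52 as deposited, which was not called (adjusted p = 0.074), and was called higher after quantile normalization (0.77, adjusted p = 4.8e-07), when 22 genes were lower, against 14.3% lower and 11.5% higher of all genes.

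With 3 ng for 12 h, 5 of the 28 genes were lower than at 0 ng for 24 h, where 1.24% of all genes were called lower and 1.57% higher, and 3 had groups that did not overlap, against 4.21% of all genes. They were XRCC2 (2.10-fold), BARD1 (1.92-fold), EXO1 (1.89-fold), BRCA1 (1.79-fold) and FANCF (1.77-fold). XRCC2 had 6.76, 8.08, 6.95 and 7.30 at 3 ng for 12 h, against 7.92 to 8.79 at 0 ng, so that replicate 2 overlapped the 0 ng range. EXO1 had 8.19, 9.17, 8.29 and 8.55, against 9.12 to 9.79 at 0 ng, with the same array overlapping. BARD1 had 5.76, 6.67, 5.57 and 6.0, against 6.71 to 7.34 at 0 ng, with no overlap. This count depended on single arrays and on scaling: it was 18 without 3 ng 12 h replicate 2, 0 without replicate 1 or replicate 3 of that group or without 0 ng replicate 4, 1 without 3 ng 12 h replicate 4 or 0 ng replicate 1 and 2 without 0 ng replicate 2. After quantile normalization 14 genes were lower and 1, RAD51C, was higher (0.61, adjusted p = 2.2e-05), against 8.57% lower and 6.61% higher of all genes.

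The group means of 20 of the 28 genes (71.4%) fell at each step of a set order of the groups, against 16.2% of all 18417 genes. The order ran from 0 ng at 24 h through 3 ng and 5 ng at 12 h to 3 ng and 5 ng at 24 h. It is not a time course. Dose and time change together in its first step and between 5 ng at 12 h and 3 ng at 24 h. It uses the same group means as the comparisons above. After quantile normalization the counts were 19 of 28 (67.9%), against 7.26% of all genes. For XRCC2 the means in that order were 8.34 ± 0.36, 7.27 ± 0.58, 6.62 ± 0.31, 5.60 ± 0.26 and 3.70 ± 0.22 (SD, n = 4 each). The genes outside this order were FANCE, FANCF, PALB2, RAD51C, MRE11, RAD50, SLX4 and MUS81. MRE11 had 5.44, 5.31, 5.37 and 5.77 at 5 ng for 24 h, against 5.24, 5.35, 5.39 and 5.29 at 3 ng for 24 h, groups that overlapped (0.15, adjusted p = 0.998). For PALB2 the 24 h means were 6.65 ± 0.16 at 5 ng and 6.61 ± 0.13 at 3 ng.

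Other genes of crosslink repair and recombination were counted for comparison. Of 53 measured genes on this second list, 36 were lower at 5 ng than at 0 ng at 24 h, with a median of -1.0. At 3 ng 37 were lower, and none was higher at either dose as deposited. Of all genes, 23.5% were lower and 4.52% higher at 5 ng, and 23% and 1.5% at 3 ng. After quantile normalization 34 of the 53 were lower and 5 higher at 5 ng, with a median of -0.62. At 3 ng 33 were then lower and 4 higher. Of all genes, 17.2% were then lower and 20.6% higher at 5 ng, and 12.5% and 15.4% at 3 ng. After median centring none of the 53 was called higher at either dose. Of all 18417 genes, median centring called 2730 lower and 2172 higher at 5 ng, and 2361 lower and 814 higher at 3 ng. The 4 largest falls at 5 ng were those of MND1, a recombination accessory factor (14.1-fold), PARPBP, an inhibitor of recombination (11.3-fold), UHRF1, which also senses crosslinks (11.1-fold), and the end-joining polymerase POLQ (9.73-fold). These 4 were also the genes of the second list called lower at 5 ng than at 3 ng at 24 h as deposited. After quantile normalization 15 were lower and 1 higher, against 4.42% lower and 5.96% higher of all genes. After median centring 8 were lower, against 222 lower and 724 higher of all 18417 genes. Of 9 classical end joining genes, 7 were lower at 5 ng than at 0 ng, with a median of -0.61, while after quantile normalization 6 were lower and 1 higher (median -0.37) and after median centring 4 were lower and 1 higher. The largest falls as deposited were those of PRKDC (2.53-fold), DCLRE1C (2.49-fold), XRCC4 (2.16-fold) and NHEJ1 (1.78-fold). None of the 9 differed between the doses at 24 h at adjusted or unadjusted p under 0.05 in limma, and 1 was called lower after quantile normalization. At 5 ng for 24 h the mean signals were 3.34 for MND1, 2.205 for PARPBP, 3.81 for POLQ and 3.22 for DCLRE1C. The part of background signal in the falls of these genes was not tested.

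A panel of 15 proliferation genes was set beside the list. All 15 were lower than 0 ng at both doses at 24 h, against 23% of all genes at 3 ng and 23.5% at 5 ng. Between 5 ng and 3 ng 13 were lower at 24 h, against 0.755% of all genes, and none at 12 h. At 12 h 7 were lower at an unadjusted p under 0.05, against 813 of 18417 genes. After quantile normalization 5 were called lower there, against 0.424% of all genes. The mean log2 signal of the panel on an array was 6.55 to 6.78 at 5 ng for 24 h and 7.49 to 7.76 at 3 ng for 24 h, against 9.52 to 10.11 at 0 ng, and at 12 h it was 8.32 to 9.10 at 5 ng, against 8.73 to 9.73 at 3 ng. CCNA2, the S and G2 phase cyclin, fell 19.7-fold between 5 ng and 0 ng, CCNE2 17.3-fold, the proliferation marker MKI67 16.8-fold and TOP2A 16.4-fold. Between 5 ng and 3 ng at 24 h, 14 of the 15 differences were negative. PCNA went the other way, with a mean of 10.205 at 5 ng, against 9.92 at 3 ng. TYMS had means of 9.125 and 9.215 there. The part of proliferation in the falls of the repair genes was not tested.

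**Figure D5:**
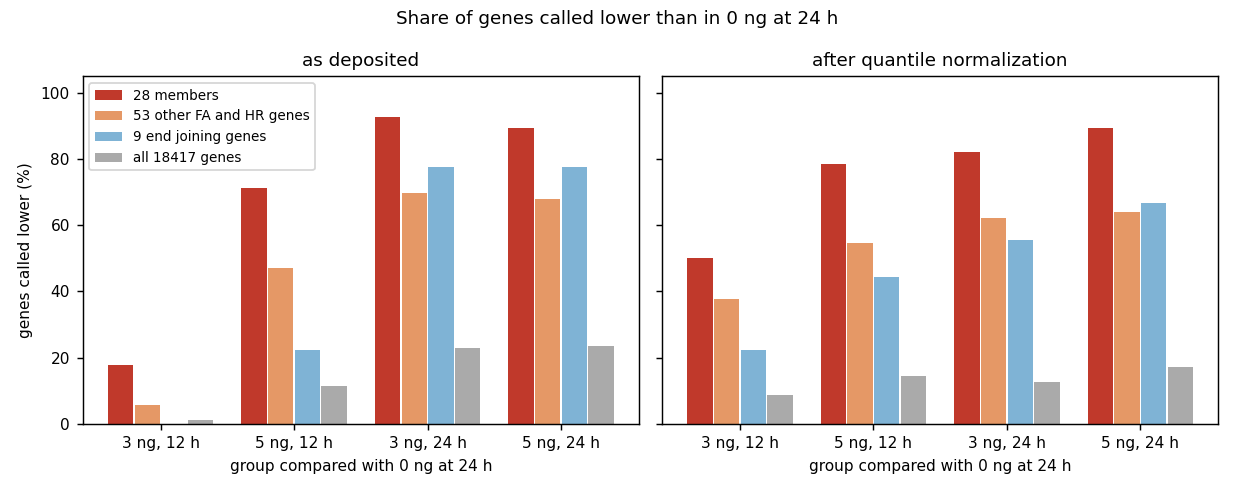
Percentage of genes called lower than in 0 ng cells at 24 h, for 3 ng at 12 h, 5 ng at 12 h, 3 ng at 24 h and 5 ng at 24 h, among the 28 genes of the list, 53 other crosslink repair and recombination genes, 9 end joining genes and all 18417 genes, as deposited and after quantile normalization. As deposited, 25 of the 28 genes were called at 5 ng for 24 h, against 23.5% of all genes, and 5 at 3 ng for 12 h, against 1.24%.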

How the data were processed

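Total RNA from 20 samples was measured on 20 Affymetrix arrays, in the 5 groups of 4 that the labels give. Log2 signals were deposited by the authors, with 1 value for each array and each transcript cluster, a set of probes against 1 transcription unit. The submitters' processing notes name GCOS, GCRMA, Affymetrix Power Tools and limma, with no versions or order. The step that scaled the arrays is not stated there. Of 33297 clusters, 19460 had 1 gene symbol in the platform annotation, 1754 had several and 12083 were not listed there. The brightest cluster stood for each of the 769 genes with more than 1, which left 18417 genes, and no gene was filtered out for low signal. Entrez identifiers matched 19429 clusters to current records and changed 0 symbols. All 28 genes of the list had 1 cluster each.

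The values were used as deposited. A model with 1 mean per group was fitted to all 20 arrays (15 residual degrees of freedom) with lmFit and eBayes in limma 3.58.1 under R 4.3.3. P-values were adjusted by Benjamini-Hochberg over all 18417 genes, and genes under 0.05 were called. Errors are standard errors (SE) of the model, intervals are 95% intervals of the model, and their precision is limited by the array number. The fit was tested on simulated data. The list and the lists beside it were chosen with earlier results of these data known. Every measured gene of the list is named. Values per array are given for the 8 genes with the largest difference between 5 ng and 0 ng at 24 h, for the 3 largest called differences in each other comparison, and for genes called higher. RAD50, SLX4 and MRE11 were added after their values were seen. The lists beside it are represented by up to 4 genes with the largest called difference between 5 ng and 0 ng. Other marker genes are named only for their signal level. Epithelial markers numbered 9 measured genes, of which 1 was lower and 4 were higher at 5 ng than at 0 ng at 24 h. The lower one was EPCAM (log2 difference -0.85, adjusted p = 0.0042 in limma). The largest rises were those of KRT5 (0.66), KRT14 (0.56) and KRT8 (0.53). Of the 13 markers of other cell types 2 were lower, CD14 and KDR (1.50-fold), and none higher. After quantile normalization 1 epithelial marker was lower and 7 were higher, and of the other markers 1 was lower and 2 were higher. Alternatives were quantile normalization, median centring, a filter on the dimmest 30% (which kept 12891 genes), cluster means, all clusters, a trended and robust eBayes, array weights, the compared groups alone, the replicate number as a block, and each array left out. Promoters came from RefSeq windows of build GRCh38.p14.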

Additional observations from a re-analysis of the deposited data

Results flagged for a closer look

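In 7 of 140 groups of 4 arrays, 1 array of a gene of the list stood apart from the other 3, with a gap to its nearest neighbour whose share of the group's range was above Dixon's 95% critical value. Chance marks about 1 in 20 such groups, which is 7 of 140. FANCL at 5 ng for 24 h had 6.06 in replicate 4, with the next array at 5.37 (a share of 0.896). UBE2T at 5 ng for 24 h had 6.64 in replicate 2, next to 6.21 (0.86). SLX4 at 5 ng for 24 h had 5.44 in replicate 2, next to 5.69 (0.926). MUS81 at 3 ng for 24 h had 8.95 in replicate 4, next to 9.21 (0.897). XRCC3 stood out in 2 groups, with 4.58 in replicate 1 at 3 ng for 24 h, next to 5.14 (0.918), and 6.18 in replicate 2 at 3 ng for 12 h, next to 5.65 (0.841). FANCG at 0 ng had 7.86 in replicate 4, next to 7.40 (0.852). Without the array that stood apart, FANCL at 5 ng against 12 h at the same dose was called (-1.0, adjusted p = 0.018), and XRCC3 at 3 ng lost its call between 24 h and 12 h without either array (-0.57 both times, adjusted p = 0.084 and 0.090).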

How the results depend on the processing

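The calls between 5 ng and 0 ng at 24 h changed little: 25 to 26 genes of the list were called when 1 array was left out, and 23 to 27 between 3 ng and 0 ng. Between 5 ng and 3 ng at 24 h the 9 calls became 15 after quantile normalization (14 lower, 1 higher), 14 with array weights and 6 to 9 with 1 array left out. Over all 18417 genes, 139 lower and 329 higher as deposited became 814 and 1097 after quantile normalization and 423 and 968 with array weights. At 12 h the 0 calls of the list became 1 after quantile normalization and stayed 0 with 1 array left out. The counts between 24 h and 12 h were 15 to 21 at 3 ng and 14 to 20 at 5 ng with 1 array left out. For 5 ng at 12 h against 0 ng they were 16 to 24. The 5 calls of 3 ng at 12 h against 0 ng became 15 after quantile normalization, 19 after median centring, 12 without the dimmest 30% of genes, 12 with the trended and robust eBayes, 12 with array weights, 2 with all clusters, 1 with the compared groups alone, and 0 to 18 with 1 array left out. The count of all genes called lower in that comparison moved as well, from 229 of 18417 as deposited. It was 1579 after quantile normalization, 3063 after median centring, 745 with the trended and robust eBayes and 933 with array weights. It was 599 of 12891 without the dimmest 30%, 90 with all clusters and 49 with the compared groups alone. In the list, the interaction had 1 call with array weights, RAD51AP1 (-1.33, adjusted p = 0.045), against 27 of all 18417 genes, and 0 with 1 array left out. RAD51C reversed its sign between 5 ng and 0 ng at 24 h after quantile normalization, with 0.21 against -0.18 as deposited. The causes were not tested.

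The replicate numbers were not taken to pair the samples. The rule asked that deviations from the group means correlate above 0.1 in every same-numbered pair, which was not met. Missing that rule does not exclude a pairing, so results with the replicate number as a block are also given. The correlation of same-numbered arrays averaged 0.0728 (-0.179 to 0.501, 13 of 40 pairs over 0.1), and that of arrays with different numbers averaged -0.0235 (-0.444 to 0.352, 20 of 120 over 0.1). With the replicate number as a block, 9 genes were called between 5 ng and 3 ng at 24 h, as without it, and 4 of the 252 gene results passed the threshold that had missed it. With the block and quantile normalization together, a setting chosen after seeing the data, 15 genes of the list were called between 5 ng and 3 ng at 24 h and 6 at 12 h. At 3 ng for 12 h against 0 ng 16 were called, and 1 in the interaction, XRCC2 (-1.26, adjusted p = 0.0055). RAD51C had 0.21 between 5 ng and 0 ng. Of all 18417 genes, this setting called 1114 lower and 1375 higher between 5 ng and 3 ng at 24 h. At 12 h it called 193 lower and 641 higher. At 3 ng for 12 h against 0 ng it called 2144 lower and 1449 higher, and 61 and 16 in the interaction.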
